A study of Mus musculus with 8 samples.

Results

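The 8 genes described here encode enzymes that make or consume 2-oxoglutarate, that remove 2-hydroxyglutarate or, for Fh1, that remove fumarate. They are the isocitrate dehydrogenase genes Idh1, Idh2, Idh3a, Idh3b and Idh3g, the oxoglutarate dehydrogenase gene Ogdh, the 2-hydroxyglutarate dehydrogenase gene D2hgdh and the fumarase gene Fh1. They were taken by symbol through their Ensembl identifiers, and all 8 were found among the 23318 genes measured. RNA came from mouse small intestinal epithelium sorted by flow cytometry on CD24, a surface glycoprotein. Cells with CD45, an antigen of leukocytes, and cells that bind Ulex europaeus lectin were depleted. There were 4 libraries of CD24Neg cells (title numbers 2, 4, 6 and 8) and 4 of CD24Mid cells (title numbers 1, 3, 5 and 7), which the series text describes as biological replicates and, for CD24Mid, also as CD24low. Total RNA was made into TruSeq RNA libraries. The labels give no strain, genotype, age, sex or treatment and do not say whether a library pooled animals. The question of the series is how 5-hydroxymethylcytosine and gene activity relate during intestinal differentiation.

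2-oxoglutarate is an intermediate of the citric acid cycle and the cosubstrate of the TET dioxygenases, which oxidise 5-methylcytosine to 5-hydroxymethylcytosine, and of the related histone demethylases and prolyl hydroxylases. IDH1, in the cytosol and peroxisomes, and IDH2, in mitochondria, interconvert isocitrate and 2-oxoglutarate with NADP, while the mitochondrial IDH3 complex of alpha, beta and gamma subunits uses NAD and drives the cycle forward. OGDH is the first enzyme of the complex that consumes 2-oxoglutarate, D2HGDH oxidises D-2-hydroxyglutarate back to 2-oxoglutarate, and fumarase removes fumarate. Both 2-hydroxyglutarate and fumarate can compete with 2-oxoglutarate in these dioxygenases.

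The fractions were told apart by named markers, and transcripts of other cell types were present. Cd24a, which encodes the sorting antigen, had 414 ± 122 in CD24Neg and 2820.5 ± 622 in CD24Mid, in the deposited normalised units. All 5 epithelial markers were detected in every library, 5 of 5 enterocyte markers were higher in CD24Neg and 5 of 5 crypt base and cycling markers were lower. Lymphocyte markers were not absent: the summed value of 6 T and intraepithelial lymphocyte genes lay between 423.8 and 7082 in CD24Neg, highest in libraries 2 and 8, and between 89.2 and 246 in CD24Mid, with no marker at 0 throughout and 5 of 6 called higher. The summed value of 6 B and plasma cell genes was 182 to 406 in CD24Neg and 2894 to 7485 in CD24Mid, and 4 of the 4 testable ones were lower. Mitochondrially encoded transcripts made up 28.3% to 37.4% of the values in CD24Neg and 8.03% to 9.10% in CD24Mid. Estimated depth was 12.4 to 20.6 M reads in CD24Neg and 17.5 to 19.6 M in CD24Mid. Without mitochondrially encoded transcripts it was 8.11 to 14.6 M in CD24Neg and 15.9 to 18.0 M in CD24Mid, with no overlap. Goblet cell markers were higher in CD24Neg for 5 of 5 genes (summed value 181869 to 504156 in CD24Neg and 47348 to 74361 in CD24Mid), and enteroendocrine markers were lower for 4 of 5. The part of these differences in the results below was not tested, except that values without CD24Neg libraries 2 and 8 are given.

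Of the 8 genes, Idh1, Ogdh and D2hgdh were higher in CD24Neg, Idh2 was lower, and Idh3a, Idh3b, Idh3g and Fh1 were not called. Calls use limma, adjusted by Benjamini and Hochberg across the 12906 genes tested, at a threshold of 0.05. A log2 fold change is the difference in log2(value + 0.5), CD24Neg minus CD24Mid, and understates changes of low genes. The 4 calls among 8 genes stand against a background in which 68.3% of all tested genes were called, 34.0% higher and 34.3% lower, so the share called is not a result about these genes. The libraries of the fractions did not overlap for 5 of the 8 genes, 4 higher and 1 lower, where 63.8% of all tested genes did not overlap, 31.8% higher and 32.1% lower. Their median log2 fold change was 0.09, against -0.02 over all tested genes. Of the 4 calls, that of D2hgdh depends on how the libraries were scaled to each other. When totals that leave out the 20 most abundant genes set the scale, its log2 fold change was -0.01 (limma adjusted p = 0.927). Idh1, Ogdh and Idh2 kept direction and call under each of the 18 alternatives. The results of Idh3a, Idh3b, Idh3g and Fh1 depend on the scaling too, since each was called lower with quantile normalization and with scaling to totals. Scaling to totals means, here and below, totals less the 20 most abundant genes or totals less mitochondrially encoded genes. Totals of all genes were not used as a scale.

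**Figure D1:**
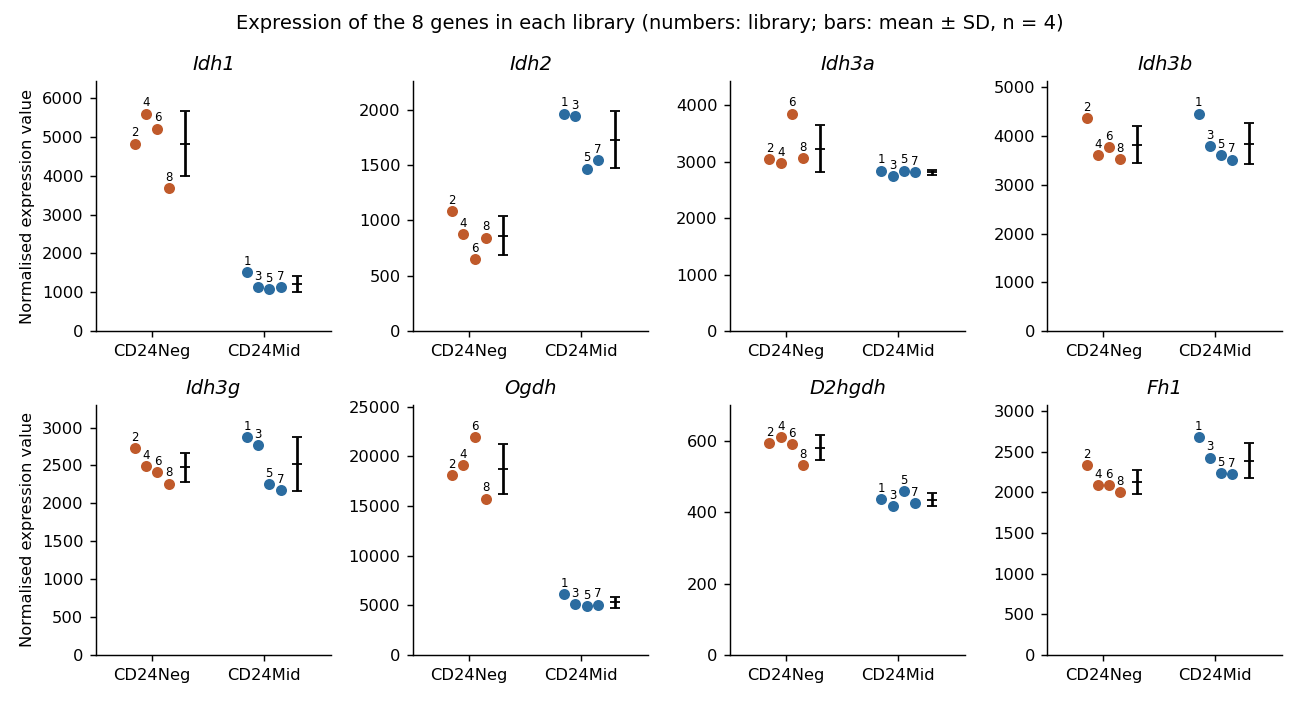
Normalised expression value (vertical axis, from 0) of each of the 8 genes in CD24Neg libraries 2, 4, 6 and 8 and CD24Mid libraries 1, 3, 5 and 7; points are libraries and bars are mean ± SD. Idh1 lies between 3673 and 5595 in CD24Neg and between 1081 and 1516 in CD24Mid, Ogdh is separated in the same direction and Idh2 in the opposite one, while Idh3b and Idh3g overlap.

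The promoter windows of the 4 called genes are shown because these genes moved in both directions. Each window holds 300 bases around the most upstream listed start, 5′ to 3′ on the gene's strand, from RefSeq on GRCm38.p6. Capitals mark the GC box GGGCGG and, in D2hgdh, the sterol element TCACNCCAC, on either strand.
Idh1, chr1:65186430-65186729, minus strand: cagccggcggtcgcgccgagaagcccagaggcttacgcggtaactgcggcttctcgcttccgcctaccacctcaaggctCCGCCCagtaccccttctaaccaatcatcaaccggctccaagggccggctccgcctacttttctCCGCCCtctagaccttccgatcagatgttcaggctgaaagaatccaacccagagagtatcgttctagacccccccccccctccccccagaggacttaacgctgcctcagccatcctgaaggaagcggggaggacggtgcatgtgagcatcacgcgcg
Ogdh, chr11:6291347-6291646, plus strand: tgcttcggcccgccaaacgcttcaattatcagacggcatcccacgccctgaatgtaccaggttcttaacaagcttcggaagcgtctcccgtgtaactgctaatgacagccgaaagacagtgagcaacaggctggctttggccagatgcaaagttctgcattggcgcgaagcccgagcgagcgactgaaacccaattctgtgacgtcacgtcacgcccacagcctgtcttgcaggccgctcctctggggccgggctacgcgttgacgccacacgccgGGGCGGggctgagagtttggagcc
D2hgdh, chr1:93824990-93825289, plus strand: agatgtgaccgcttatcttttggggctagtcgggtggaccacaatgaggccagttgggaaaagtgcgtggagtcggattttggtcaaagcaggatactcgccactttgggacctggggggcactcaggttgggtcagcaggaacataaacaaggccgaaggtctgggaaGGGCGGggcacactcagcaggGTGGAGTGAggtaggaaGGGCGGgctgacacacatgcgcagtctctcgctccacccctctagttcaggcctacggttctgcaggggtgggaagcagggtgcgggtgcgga
Idh2, chr7:80115301-80115600, minus strand: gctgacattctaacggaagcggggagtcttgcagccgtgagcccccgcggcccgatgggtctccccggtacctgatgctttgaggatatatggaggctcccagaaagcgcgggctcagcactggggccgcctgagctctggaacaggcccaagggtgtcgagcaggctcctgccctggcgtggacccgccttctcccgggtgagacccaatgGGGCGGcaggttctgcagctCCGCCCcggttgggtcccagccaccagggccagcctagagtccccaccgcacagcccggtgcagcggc
A GC box stood 2 times in the windows of Idh1, D2hgdh and Idh2 and 1 time in that of Ogdh, and 35.7% of the 32851 promoter windows in the table hold one. The sterol element in the D2hgdh window is found in 1.24% of windows, and no base lay in 2 matches. None of these 4 windows held the E-box CACGTG (7.15% of windows) or the HNF4 element CAAAGTCCA (0.475%). An E-box was held by 3 of the other windows listed for Ogdh, of which 2 overlap and share the same E-box. The genes that rose and the gene that fell are not set apart by the GC box. Idh3a has no entry in the table. These matches describe letters and were not tested for binding.

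Idh1, the cytosolic NADP-dependent enzyme, was 3.96-fold higher in CD24Neg. Its values were 4824, 5595, 5212 and 3673 in CD24Neg libraries 2, 4, 6 and 8 and 1516, 1131, 1081 and 1131 in CD24Mid libraries 1, 3, 5 and 7. The groups do not overlap, and the lowest CD24Neg library lies far above the highest CD24Mid library. The log2 fold change was 1.99 (SE 0.16, 95% interval 1.64 to 2.33; limma adjusted p = 2.44e-06). Of all tested genes, 10.7% were called and at least 3-fold higher. Without CD24Neg libraries 2 and 8, which had the most lymphocyte transcripts, the log2 fold change was 2.19. Library 8 was the lowest CD24Neg library and library 1 the highest in CD24Mid. In bulk samples such as these, fewer cells of a type and less RNA per cell cannot be told apart.

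Idh2, the mitochondrial NADP-dependent enzyme, moved the other way. Its values were 1083, 874, 653 and 846 in CD24Neg libraries 2, 4, 6 and 8 and 1964, 1939.8, 1468 and 1548 in CD24Mid libraries 1, 3, 5 and 7. Each CD24Neg library lies below each CD24Mid library, with a log2 fold change of -1.01 (SE 0.16, 95% interval -1.37 to -0.65, limma adjusted p = 0.000299), so that the transcript was 2.02-fold lower. Of all tested genes, 19.9% were called and at least 2-fold lower. Without CD24Neg libraries 2 and 8 the log2 fold change was -1.16. Over the leaving out of each library in turn it lay between -1.11 and -0.88.

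Because a ratio taken inside a library does not depend on a single scale factor per library, the 2 NADP-dependent genes were also compared with each other. Quantile normalization is not such a factor, and the ratios were not computed under it. The log2 ratio of Idh2 to Idh1, not divided by transcript length and so read for its change alone, was -2.15, -2.68, -2.99 and -2.12 in CD24Neg libraries 2, 4, 6 and 8. In CD24Mid libraries 1, 3, 5 and 7 it was 0.37, 0.78, 0.44 and 0.45. The mean ratio was therefore 7.99-fold lower in CD24Neg (difference -3.00, exact two-sided permutation p = 0.0286, the smallest that 4 against 4 libraries allow, and 0.0571 after Benjamini-Hochberg adjustment over 6 ratios). The adjusted value misses 0.05, although the groups are far apart in every library. Per kilobase of transcript, Idh1 averaged 2096 ± 361 and Idh2 495 ± 101 in CD24Neg, whereas in CD24Mid Idh1 averaged 528 ± 87.8 and Idh2 991 ± 148 (SD, n = 4 each). The order of the pair was thus opposite in the 2 fractions, in all 8 libraries.

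**Figure D2:**
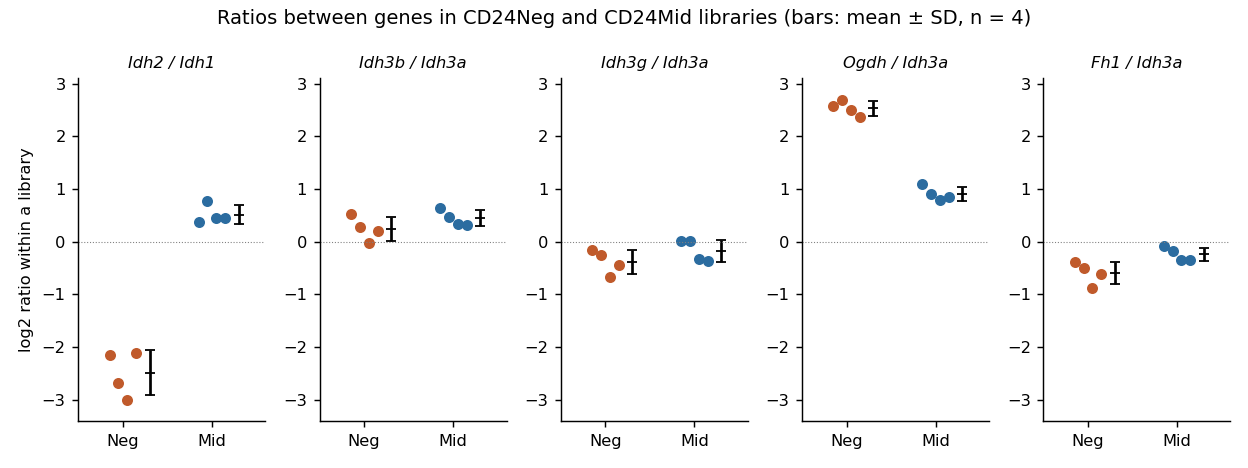
Log2 ratio of 2 genes within each library (vertical axis, not corrected for transcript length) for 5 pairs, with CD24Neg left of CD24Mid; points are libraries and bars are mean ± SD of 4. Idh2 to Idh1 lies between -2.99 and -2.12 in CD24Neg and between 0.37 and 0.78 in CD24Mid, Ogdh to Idh3a is higher in CD24Neg, and the ratios of Idh3b and Idh3g to Idh3a overlap.

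None of the 3 subunit genes of the NAD-dependent enzyme passed the test under the scaling used here. Idh3a, the catalytic alpha subunit, had 3043, 2972, 3854 and 3068 in CD24Neg libraries 2, 4, 6 and 8 and 2847, 2748, 2847 and 2819 in CD24Mid libraries 1, 3, 5 and 7. The fractions do not overlap and the CD24Mid libraries are very close together, yet the log2 fold change of 0.19 did not pass (SE 0.10, 95% interval -0.04 to 0.43, limma adjusted p = 0.127), and CD24Neg library 6 stood apart from the other 3. Idh3b, a regulatory subunit, averaged 3823 ± 382 in CD24Neg and 3846 ± 426 in CD24Mid, with ranges of 3524 to 4375 in CD24Neg and 3516 to 4460 in CD24Mid. Its log2 fold change was -0.01 with a 95% interval of -0.26 to 0.25 (limma adjusted p = 0.957). Idh3g, the other regulatory subunit, averaged 2474 ± 193 in CD24Neg and 2519.6 ± 353 in CD24Mid, with a log2 fold change of -0.02 and a 95% interval of -0.28 to 0.25 (limma adjusted p = 0.895). These intervals hold under this scaling. The ratios inside the complex overlapped between fractions. Idh3b to Idh3a differed by -0.20 in log2 (exact two-sided permutation p = 0.2) and Idh3g to Idh3a by -0.21 (p = 0.229, same exact permutation test, adjusted p = 0.274 for both). This picture rests on the scaling. With quantile normalization, and with scaling to totals as defined above, all 3 subunits and Fh1 were called lower. The log2 fold changes were -0.31 to -0.24 for Idh3a, -0.53 to -0.44 for Idh3b and -0.48 to -0.45 for Idh3g.

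Ogdh, the gene for the enzyme that consumes 2-oxoglutarate in the cycle, was 3.51-fold higher in CD24Neg. Its values were 18080.5, 19115, 21895 and 15737 in CD24Neg libraries 2, 4, 6 and 8 and 6107, 5135, 4922 and 5072 in CD24Mid libraries 1, 3, 5 and 7. Every CD24Neg library lies far above every CD24Mid library. The log2 fold change was 1.81 (SE 0.13, 95% interval 1.52 to 2.10, limma adjusted p = 1.43e-06). It was 1.18 with quantile normalization, the smallest value under the alternatives, and 1.98 without CD24Neg libraries 2 and 8. Relative to the supplying subunit gene Idh3a, Ogdh was 3.07-fold higher in CD24Neg than in CD24Mid. That log2 ratio was 2.57, 2.68, 2.51 and 2.36 in CD24Neg libraries 2, 4, 6 and 8 and 1.10, 0.90, 0.79 and 0.85 in CD24Mid libraries 1, 3, 5 and 7 (exact two-sided permutation p = 0.0286, adjusted p = 0.0571). The other subunits of the same complex did not follow equally: Dlst, the succinyltransferase subunit, averaged 7297 ± 867 in CD24Neg and 2916 ± 186 in CD24Mid (log2 fold change 1.32, limma adjusted p = 3.63e-06), while Dld, the lipoamide dehydrogenase shared with other complexes, averaged 2749 ± 412 in CD24Neg and 2280.4 ± 258 in CD24Mid and was not called (log2 fold change 0.26, limma adjusted p = 0.0949). Dld passed when CD24Neg library 2 was left out (adjusted p = 0.0299), and it was below 0 and not called under the 3 other scalings.

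D2hgdh, which clears D-2-hydroxyglutarate, was slightly higher in CD24Neg, though not with libraries scaled to totals. Its values were 594, 610.3, 591 and 532 in CD24Neg libraries 2, 4, 6 and 8 and 437, 418, 460.1 and 426 in CD24Mid libraries 1, 3, 5 and 7. No library of one fraction reaches into the other, and the log2 fold change of 0.42 (SE 0.09, 95% interval 0.22 to 0.62, limma adjusted p = 0.00195) is a 1.34-fold difference. It had the fewest estimated reads of the 8 genes, 336 to 764 per library. With libraries scaled to totals less the 20 most abundant genes, the median of all tested genes moved to -0.44 and D2hgdh stood at -0.01. That is 0.43 above the median, against 0.44 above the median in the fit reported here. A D2hgdh transcript matches the pseudogenes Gm7889 and Gm18666 over 567 bases at 99.1% and 99.6% identity. Neither pseudogene is among the genes measured, and how reads shared with them were assigned is not given in the sources used here.

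Fh1, which encodes fumarase, had 2331, 2091, 2088 and 2000.2 in CD24Neg libraries 2, 4, 6 and 8 and 2677, 2427, 2234 and 2225 in CD24Mid libraries 1, 3, 5 and 7. CD24Neg library 2 lies within the CD24Mid range, and the difference did not pass (log2 fold change -0.17, SE 0.10, 95% interval -0.38 to 0.05, limma adjusted p = 0.155). Against Idh3a within each library it was 1.28-fold lower in CD24Neg, with no overlap (difference -0.36, exact two-sided permutation p = 0.0286, adjusted p = 0.0571). Scaled to totals less the 20 most abundant genes, Fh1 was called lower at -0.59, and with quantile normalization at -0.61.

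**Figure D3:**
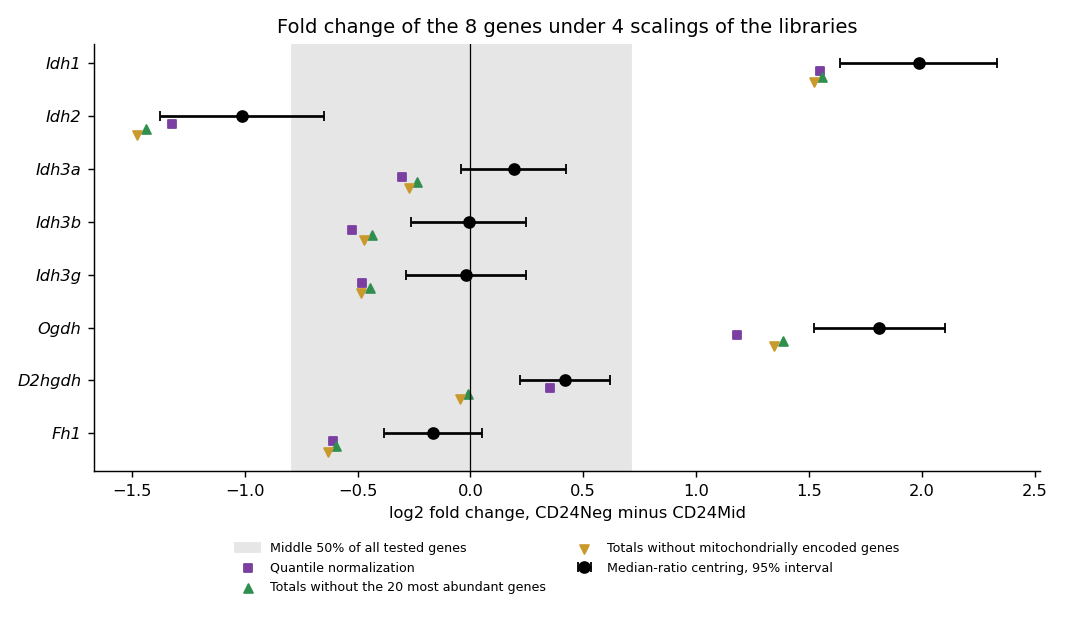
Log2 fold change, CD24Neg minus CD24Mid (horizontal axis), of the 8 genes with libraries centred on their median ratio (black, 95% interval) and under 3 other scalings; the grey band spans the middle 50% of all tested genes, -0.79 to 0.71. Idh1, Ogdh and Idh2 stay on their side of 0 under each scaling, whereas D2hgdh reaches -0.01 and -0.05 under scaling to totals, and Idh3a, Idh3b, Idh3g and Fh1 move to between -0.63 and -0.24 under the 3 other scalings.

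Levels of the genes were set against each other per kilobase of transcript, with lengths from GENCODE M21. In CD24Neg the order was Ogdh (4533 ± 618), Idh3b (2366 ± 237), Idh1 (2096 ± 361), Idh3g (1859 ± 145), Idh3a (1346 ± 173), Fh1 (807 ± 53.9), Idh2 (495 ± 101) and D2hgdh (168 ± 9.88), as value per kilobase, mean ± SD of 4 libraries. The libraries of Idh1 (1596 to 2431) overlap those of Idh3b, Idh3g and Idh3a, so its place among these is not firm. In CD24Mid the order was Idh3b (2380 ± 264), Idh3g (1893 ± 265), Ogdh (1286 ± 131), Idh3a (1171 ± 19.3), Idh2 (991 ± 148), Fh1 (907 ± 80.5), Idh1 (528 ± 87.8) and D2hgdh (126 ± 5.30), where Idh2 and Fh1 overlap. Ogdh therefore held place 1 in CD24Neg and place 3 in CD24Mid, and Idh1 held place 3 in CD24Neg and place 7 in CD24Mid. The annotation is on another build than the authors' alignment, and the transcript chosen for each gene affects these levels but not the differences between fractions.

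Within a fraction, a library could stand at one end of the range for most of the genes, while the other end was divided. The highest CD24Neg library was library 2 for 4 genes, library 4 for 2 and library 6 for 2. The lowest CD24Mid library was library 3 for 2 genes, library 5 for 3 and library 7 for 3. Whether the genes varied together was not tested. CD24Neg library 8 was the lowest of its fraction for 6 of the 8 genes, all except Idh2 and Idh3a, where 25.5% of all tested genes were lowest in that library. CD24Mid library 1 was the highest of its fraction for 6 of the 8, all except Idh3a and D2hgdh, where 32.7% of all tested genes were highest there.

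Profiles across the 8 libraries were compared with those of all tested genes by the root mean square difference of log2 values, each gene centred on its own mean. Closest to Ogdh were P4hb (0.05), Mdh1 (0.06) and Slc3a2 (0.07), and closest to Idh1 were P4hb (0.10), Tm4sf5 (0.11) and Tkfc (0.11), so that P4hb, which encodes protein disulfide isomerase and the beta subunit of collagen prolyl 4-hydroxylase, stood nearest to both. Idh2 was closest to the ribosomal protein genes Rps25 (0.05) and Rpl28 (0.06) and to Rpl27-ps3 (0.06). Nearest to D2hgdh were Snx18 (0.05), Akirin1 (0.06) and Plekhf2 (0.06). Within 0.15 lay 19 genes for Idh1, 147 for Idh2, 74 for Ogdh, 588 for D2hgdh, 519 for Idh3a, 591 for Idh3b, 636 for Idh3g and 730 for Fh1. The 3 nearest were Exoc3, Dnajb6 and 0610030E20Rik for Idh3a, 2810459M11Rik, Psmf1 and Cebpa for Idh3b, Tomm34, Pkig and Tmem222 for Idh3g, and Hs6st1, Actg1 and Cops4 for Fh1.

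The remaining genes of the pathway were taken from 11 lists holding 92 genes, of which 90 were measured and 85 could be tested. Among these, 39 were higher and 23 lower in CD24Neg and 23 were not called, with a median log2 fold change of 0.28 against -0.02 over all tested genes and 34.0% and 34.3% of all tested genes called in each direction. Scaled to totals that leave out the 20 most abundant genes, 24 were higher and 33 lower, so the balance of directions depends on the scaling.

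The rest of the citric acid cycle was mostly higher in CD24Neg. Of 14 other genes of the cycle, 11 rose, 1 fell and 2 were not called, with a median log2 fold change of 0.92. With totals that leave out the 20 most abundant genes 9 rose and 1 fell, and with quantile normalization 8 and 2. Cytosolic malate dehydrogenase Mdh1 averaged 15089.7 ± 2786 in CD24Neg and 4328 ± 552 in CD24Mid (log2 fold change 1.79, limma adjusted p = 3.61e-06), and its mitochondrial counterpart Mdh2 averaged 22633 ± 2837 in CD24Neg and 7888 ± 1292 in CD24Mid (log2 fold change 1.53, limma adjusted p = 9.84e-06). Aco1, the cytosolic aconitase and iron regulatory protein, averaged 5398 ± 935 in CD24Neg and 2238 ± 176 in CD24Mid and was 2.39-fold higher (limma adjusted p = 1.86e-05). Suclg2, the subunit that makes succinyl-CoA ligase GTP-forming, was the member that fell, with 1761 ± 111 in CD24Neg and 2463 ± 115 in CD24Mid (log2 fold change -0.48, limma adjusted p = 0.00068). Sdha, a subunit of succinate dehydrogenase, did not pass (log2 fold change 0.27, limma adjusted p = 0.052), with quantile normalization it was -0.25 (adjusted p = 0.0402), and it passed without CD24Neg library 8 (0.0276) or CD24Mid library 1 (0.0245).

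Genes that feed or drain the cycle were divided, with 4 of 11 higher, 3 lower and 4 not called (median log2 fold change 0.04). With libraries scaled to totals 4 were higher and 6 lower (medians -0.39 and -0.43 under the 2 totals). Quantile normalization gave 3 higher and 5 lower (median -0.23). Pck1, the cytosolic phosphoenolpyruvate carboxykinase of gluconeogenesis, averaged 4297 ± 2512 in CD24Neg and 147 ± 27.7 in CD24Mid and was 26.2-fold higher (limma adjusted p = 1.49e-06). Pck2, the mitochondrial form, averaged 194 ± 32.2 in CD24Neg and 1092 ± 177 in CD24Mid and was 5.64-fold lower (limma adjusted p = 7.23e-07). Pcx, the pyruvate carboxylase that refills oxaloacetate, was 5.11-fold higher (limma adjusted p = 7.47e-07). Me2, a mitochondrial malic enzyme, was 1.66-fold higher (limma adjusted p = 0.00025) and was not called with quantile normalization (adjusted p = 0.0664).

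Enzymes that move amino groups to or from 2-oxoglutarate also went both ways, 3 of 11 tested genes higher, 4 lower and 4 not called (median -0.10). Scaling to totals gave 3 higher and 6 lower (medians -0.52 and -0.56), and quantile normalization 4 and 5 (median -0.09). Gpt, an alanine aminotransferase, averaged 4574 ± 596 in CD24Neg and 184 ± 39.6 in CD24Mid (log2 fold change 4.64, limma adjusted p = 1.25e-07). Got1, the cytosolic aspartate aminotransferase, was 2.62-fold higher (limma adjusted p = 5.23e-06). Psat1, the aminotransferase of serine synthesis that yields 2-oxoglutarate, averaged 51.5 ± 11.4 in CD24Neg and 292 ± 62.0 in CD24Mid and was 5.62-fold lower (limma adjusted p = 3.44e-06). Gls2, a glutaminase, was near 0 in CD24Neg library 2, with values of 2.52 to 19.1 in CD24Neg against 119 to 162 in CD24Mid (log2 fold change -3.89, limma adjusted p = 6.1e-05).

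Enzymes with a side activity that makes 2-hydroxyglutarate did not move as one. Of 5 tested genes in that list, 4 were higher and 1 was lower (median 0.89), with quantile normalization 2 were higher and 1 lower, and with scaling to totals 3 and 1. Phgdh, the first enzyme of serine synthesis, averaged 36.6 ± 11.9 in CD24Neg and 431 ± 68.8 in CD24Mid and was 12.1-fold lower (limma adjusted p = 1.16e-06). Ldha, lactate dehydrogenase A, averaged 24596 ± 1556 in CD24Neg and 13364 ± 2234 in CD24Mid (log2 fold change 0.89, limma adjusted p = 0.000241), with quantile normalization -0.06 (adjusted p = 0.729). Mdh1 and Mdh2, given above, belong here too. Adhfe1, a hydroxyacid-oxoacid transhydrogenase, was too low to test, with values of 0 to 5.58 in CD24Neg and 2.31 to 10.1 in CD24Mid.

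All 3 tested carriers of the inner mitochondrial membrane were higher in CD24Neg. Slc25a11, the 2-oxoglutarate and malate exchanger, averaged 2644 ± 205 in CD24Neg and 1168 ± 176 in CD24Mid (log2 fold change 1.19, limma adjusted p = 1.27e-05). Slc25a10, the dicarboxylate carrier, was 2.01-fold higher (limma adjusted p = 5.23e-05). The citrate carrier Slc25a1 was 1.54-fold higher (limma adjusted p = 0.0036), a call that ended when libraries were scaled to totals less the 20 most abundant genes (log2 fold change 0.20) or by quantiles (0.24). Slc25a21, the oxodicarboxylate carrier, was listed at 0 in each CD24Neg library and at 0.483 at most in CD24Mid.

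Of 5 genes for OGDH-like enzymes or for the branched-chain ketoacid dehydrogenase complex, 2 were lower in CD24Neg and 3 were not called (median -0.54). With scaling to totals 0 were higher and 3 lower. Quantile normalization gave 1 higher and 2 lower. Ogdhl, an OGDH-like gene, lay at 1.09 to 5.73 in CD24Neg, which is only a few reads, against 29.2 to 47.3 in CD24Mid (log2 fold change -3.83, limma adjusted p = 6.99e-05). Bckdhb, of the branched-chain ketoacid dehydrogenase, averaged 27.2 ± 13.2 in CD24Neg and 105 ± 9.09 in CD24Mid and was 4.33-fold lower (limma adjusted p = 0.000968). Dbt, Dhtkd1 and Bckdha were not called, with log2 fold changes of -0.54, 0.51 and 0.28 and limma adjusted p = 0.0543, 0.0582 and 0.131. Dbt passed without CD24Neg library 8 (adjusted p = 0.0253) or CD24Mid library 3 (0.0297), and was called lower with scaling to totals, at -0.96 (0.00367) with totals less the 20 most abundant genes. Dhtkd1 passed without CD24Neg library 2 (adjusted p = 0.0346) and with quantile normalization (log2 fold change 0.75, 0.016), and was 0.09 and 0.05 with scaling to totals (0.731 and 0.847). Among other NADPH producers 2 of 7 were higher, 3 lower and 2 not called (median 0.04). Only 1 was higher and 3 were lower with scaling to totals (medians -0.39 and -0.43) and with quantile normalization (median -0.03). The folate enzymes Mthfd1 and Mthfd2 were 3.52-fold and 4.86-fold lower (limma adjusted p = 1.57e-06 and 3.48e-05), and Nnt, the mitochondrial transhydrogenase, was 1.66-fold lower (limma adjusted p = 0.000405). Pgd, of the pentose phosphate pathway, was 1.63-fold higher (limma adjusted p = 0.000549), but not when libraries were scaled to totals (log2 fold change 0.27, adjusted p = 0.0722). G6pdx and Me3 were not called (log2 fold changes 0.25 and 0.04, limma adjusted p = 0.0666 and 0.898), although G6pdx passed without CD24Neg library 8 (adjusted p = 0.0461) or CD24Mid library 1 (0.0305).

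**Figure D4:**
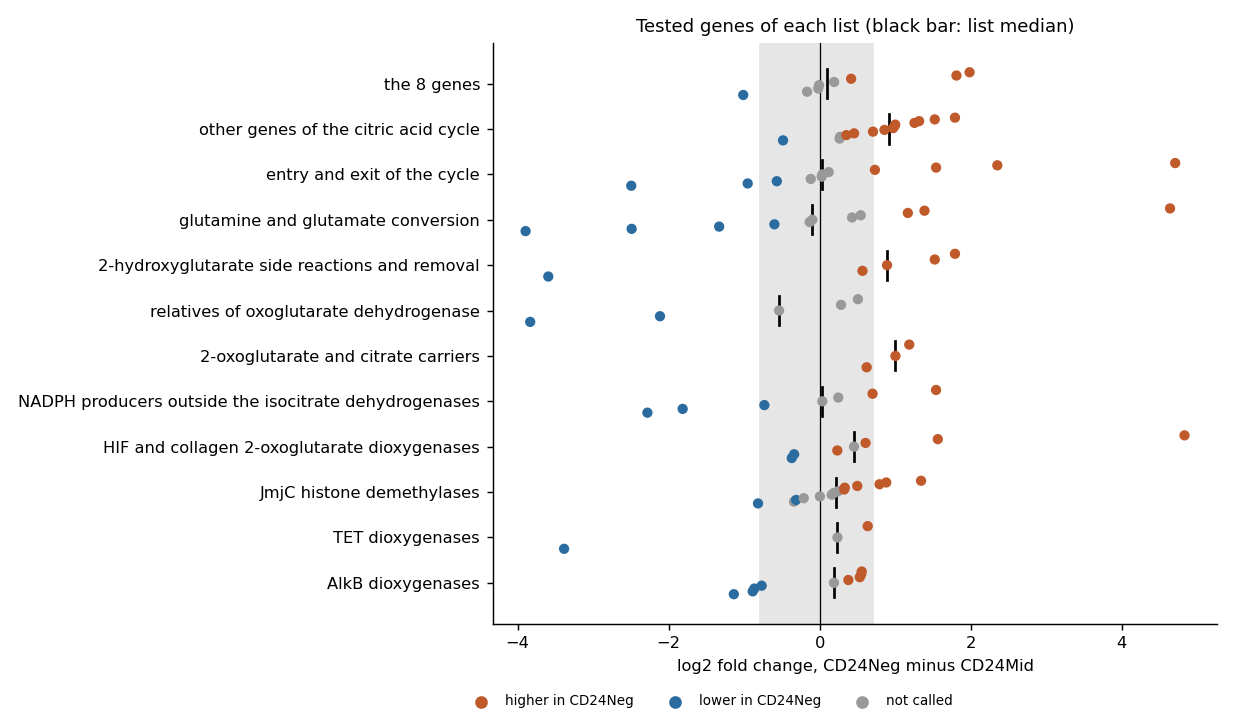
Log2 fold change, CD24Neg minus CD24Mid (horizontal axis), of each tested gene in the 12 lists (rows), coloured by call; black bars are list medians and the grey band spans the middle 50% of all tested genes, -0.79 to 0.71. The median of the other citric acid cycle genes is 0.92, while Gls2 lies at -3.89, Phgdh at -3.59 and Ogdhl at -3.83, and Pck1 lies at 4.71, Gpt at 4.64 and Egln3 at 4.83.

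The dioxygenases that use 2-oxoglutarate were mixed. Of the TET genes Tet1 was lower (log2 fold change -3.38, limma adjusted p = 0.000171). Its values were 1.41 to 7.54 in CD24Neg, which is only a few reads, and 33.0 to 82.6 in CD24Mid. Tet2 was higher (log2 fold change 0.64, limma adjusted p = 0.0139), though not when libraries were scaled to totals (adjusted p = 0.361), and Tet3 was not called (log2 fold change 0.24, limma adjusted p = 0.0594). Of 7 tested prolyl, asparaginyl and lysyl hydroxylases, 4 were higher, 2 lower and 1 not called (median 0.46). Under totals less the 20 most abundant genes 2 were higher and 2 lower (median 0.04), under totals less mitochondrially encoded genes 2 and 3 (median 0.00065), and under quantile normalization 3 and 2 (median 0.33). Egln3, an oxygen-sensing HIF prolyl hydroxylase, averaged 378 ± 105 in CD24Neg and 12.9 ± 4.36 in CD24Mid and was 28.5-fold higher (limma adjusted p = 3.85e-07). Egln2 was 1.52-fold higher (limma adjusted p = 0.000637), with scaling to totals 0.18 in log2 and not called. The lysyl hydroxylase genes Plod1 and Plod3 were 2.96-fold higher and 1.29-fold lower (limma adjusted p = 8.23e-05 and 0.0125), and P4ha1 was not called (log2 fold change 0.46, limma adjusted p = 0.322).

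Of 14 JmjC histone demethylases, 6 were higher, 2 lower and 6 not called, with 3 higher and 5 lower under scaling to totals. Kdm6b, an H3K27 demethylase, averaged 1783 ± 149 in CD24Neg and 969 ± 98.7 in CD24Mid (log2 fold change 0.88, limma adjusted p = 4.21e-05). Kdm5b and Kdm7a were 1.73-fold and 2.54-fold higher (limma adjusted p = 7.37e-05 and 0.000626) and Kdm2b was 1.76-fold lower (limma adjusted p = 0.000557). Of 9 AlkB family genes 4 were higher, 4 lower and 1 not called, and with scaling to totals 0 were higher and 5 lower. Alkbh1 and Fto were 2.20-fold and 1.85-fold lower (limma adjusted p = 1.25e-05 and 0.000201). Alkbh3 and Alkbh4 were 1.45-fold and 1.47-fold higher (limma adjusted p = 0.00909 and 0.00951), calls that ended under scaling to totals and without CD24Neg libraries 2 and 8. Alkbh5 was not called (log2 fold change 0.19, limma adjusted p = 0.102), but was called lower under scaling to totals (-0.24, adjusted p = 0.0396, and -0.28, 0.0206) and higher without CD24Neg libraries 2 and 8 (0.30, 0.0478).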

How the data were processed

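The values are expression estimates per Ensembl gene that the authors deposited as a scaled signal, 1 per library, for 23318 genes per the file headers. Bowtie 0.12.8 and the build NCBIM37 appear in the submitters' processing notes. The annotation release, the estimation tool's version and the scaling tool were not stated in the labels or headers. The deposited values share a median ratio of 1.01. Low values lie on even steps, equal in short and long genes, whose spacing was read over 8 steps as the value of 1 read (1.08 to 1.77 in CD24Neg, 0.584 to 0.696 in CD24Mid), so values follow reads, not reads per length, and CD24Neg is less precise at low values. Whole reads were not restored and no count model was used.

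A gene was tested where 4 or more libraries reached a value of 10. After centring each library on its median ratio, limma 3.58.1 in R 4.3.3 fitted log2(value + 0.5) with trend and robust variance, no covariates and 6 residual degrees of freedom. Ratios were compared by exact permutation in scipy 1.17.1, and near-identical copies, of at least 90% identity over at least 75 bases, were sought with blastn 2.17.0. Of the 8 genes D2hgdh alone had such copies, and Idh3b overlaps Nop56 on the other strand by 5 bases. Symbols came from GENCODE M21 for 21223 identifiers.

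The members, the lists and the tests were chosen with earlier results of these data known. Named were the 8 genes, Cd24a and the TET genes, and from each other list up to 4 genes by adjusted p, 1 in a direction these miss, and those not called where 3 or fewer were not. Of the 6 ratios in the adjustment 1 is not reported here, nor are some genes under this rule. For each of the 8 genes the 3 nearest profiles were named as well. Of the 100 listed genes 98 were measured, and Aadat and P4ha3 were not analysed here. Alternatives changed scaling, filter, variance model, pseudocount, null hypothesis and libraries.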

Additional observations from a re-analysis of the deposited data

Results flagged for a closer look

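In 2 of 26 groups of 4 libraries examined (the 8 genes and 5 ratios, in each fraction), 1 library stood far from the other 3, its gap to the nearest, as a share of the range, being above Dixon's critical value at 95%. Chance gives about 1 in 20 such groups. For Idh1 it was CD24Mid library 1, at 1516 where the other 3 lay between 1081 and 1131. For Idh3a it was CD24Neg library 6, at 3854 where the other 3 lay between 2972 and 3068. Without these libraries the log2 fold changes were 2.09 for Idh1 and 0.11 for Idh3a.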

How the results depend on the processing

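No paired analysis was run, because no label names a pair. The title numbers alternate between the 2 fractions, and whether consecutive numbers mark a pair is not stated. Pairing by consecutive numbers was not tested. Idh1, Ogdh and Idh2 kept their direction and their call in 18 of 18 alternatives, with log2 fold changes of 1.52 to 2.19, 1.18 to 1.98 and -1.48 to -0.88. Under quantile normalization, scaling to totals less the 20 most abundant genes and to totals less mitochondrially encoded genes, in this order, Idh3a was -0.31, -0.24 and -0.27, Idh3b -0.53, -0.44 and -0.47, Idh3g -0.48, -0.45 and -0.48, and Fh1 -0.61, -0.59 and -0.63, each called lower, so that 5 of the 8 genes were lower in each of these fits. Under the last 2 the log2 fold change of D2hgdh was -0.010 and -0.048, and tested against a fold change of 1.5 it was 0.42 and not called. The median of all tested genes was -0.02 in the fit reported here, -0.44 and -0.48 under the total scalings and -0.06 under quantile normalization. Which scaling fits these libraries best was not tested. Of all tested genes 2842 were higher and 6497 lower (30.4% of calls higher) without the 20 most abundant genes, 2723 and 6695 (28.9%) without mitochondrially encoded genes, and 2360 and 2430 (49.3%) against 1.5-fold, in place of 4386 and 4424 (49.8%). Among the other pathway genes 24, 23 and 20 were higher in these 3 fits and 11 were lower in the last. Without CD24Neg libraries 2 and 8 the ratio of Idh2 to Idh1 differed by -3.35. For the ratios, p-values with a library left out cannot pass the threshold after adjustment. Of 57 named genes, nearest profiles left aside, 32 kept call and direction under each alternative. CD24Neg depth limits genes near 0, such as Ogdhl, Gls2 and Tet1, not the 8 genes, which had at least 336 estimated reads.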

Other observations

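Cytosolic and mitochondrial forms of the same enzyme can be paired within the lists, a comparison chosen after the values were seen and therefore given with no test. The log2 ratio of the cytosolic to the mitochondrial gene was higher in CD24Neg on average in 6 of 6 pairs, and in 5 of them no library of one fraction reached the other. The difference was 7.20 for Pck1 and Pck2, 4.10 for the alanine aminotransferase genes Gpt and Gpt2 and 1.99 for the aspartate aminotransferase genes Got1 and Got2, and Idh1 and Idh2 are the pair described above. It was 0.27 for the malate dehydrogenase genes Mdh1 and Mdh2, which both rose, and 1.51 for the malic enzyme genes Me1 and Me3, where the fractions overlapped. The Got1 to Got2 ratio lay between -0.08 and 0.23 in CD24Neg and between -2.17 and -1.71 in CD24Mid. Got2 itself fell to 1516 ± 176 in CD24Neg, against 2293 ± 228 in CD24Mid (SD, n = 4 each, limma adjusted p = 0.00106).

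The 2 alternative subunits of succinyl-CoA ligase, the enzyme after oxoglutarate dehydrogenase, went opposite ways. Sucla2, of the ATP-forming enzyme and named after its values were seen, averaged 2903 ± 361 in CD24Neg and 1458 ± 138 in CD24Mid (log2 fold change 0.99, limma adjusted p = 3.07e-05), while Suclg2, of the GTP-forming enzyme, was lower.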
